A study of Mus musculus with 18 samples.

Results

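The mitochondrial ribosomal RNAs mt-Rnr1 (12S) and mt-Rnr2 (16S) were followed in RNA sequencing of the mouse prostate. They were taken by name as 2 of the 55469 gene entries that each deposited table holds, and the sum of the 11 mitochondrial mRNA entries served as their common reference. Male mice on a background that the labels write as C56NL/6N, matched by age and litter, gave total RNA of their ventral plus lateral lobes, with 3 mice and 3 libraries in each of 6 groups. WT mice carried unmodified Elac2 (ELAC2+/+). KO mice lacked exon 8 of Elac2 after recombination by Pb-Cre, which is driven by the probasin promoter of prostate epithelium, so stromal and other cells of the tissue kept the gene. A537T mice were homozygous in the whole body for an Ala537Thr variant introduced by CRISPR-Cas9. The younger mice, aged 10 weeks, gave the WT libraries 10AF to 12AF, the KO libraries 13AF to 15AF and, for A537T, 16AF to 18AF. The older mice, aged 30 weeks, gave 1AF to 3AF for WT, and 4AF to 6AF for KO, with 7AF to 9AF for A537T. Each deposited table held 1 mutant group beside the WT libraries of its age, so both mutant lines of an age shared their controls. The TRAMP lines of the study were not analysed here.

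The 12S and 16S rRNAs are the RNA cores of the small and large subunits of the mitochondrial ribosome, which translates only the mRNAs encoded by mitochondrial DNA. They are transcribed from the heavy strand as part of a long precursor in which tRNAs stand between the rRNAs and mRNAs, and cutting out the tRNAs releases them. RNase P cuts at the 5′ end of each tRNA and ELAC2, an RNase Z, at the 3′ end, so that ELAC2 makes the cut in front of 16S and of 12S, while RNase P makes the cut behind both. They are usually more abundant than the mRNAs, and unlike them carry no long poly(A) tail.

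In GRCm38, mt-Rnr1 (ENSMUSG00000064337.1) lies on the forward strand at chrM:70-1024 and mt-Rnr2 (ENSMUSG00000064339.1) at chrM:1094-2675. The genes have no introns and measure 955 and 1582 bases, with a GC content of 35.8% and 35.4%. The tRNA gene mt-Tv fills the interval between them (chrM:1025-1093), mt-Tf precedes 12S (chrM:1-68) and mt-Tl1 follows 16S (chrM:2676-2750). The 4 ends are shown because release of each rRNA depends on a cut there. The bases come from the GENCODE transcripts of GRCm38, written 5′ to 3′ on the forward strand, with rRNA bases in capitals and tRNA bases in lower case.
12S start, chrM:70-99: AAAGGTTTGGTCCTGGCCTTATAATTAATT
12S end and tRNA-Val, chrM:1010-1039: TGTGCTTGGAATAATcatagtgtagcttaa
tRNA-Val and 16S start, chrM:1079-1108: caatgaacactctgaACTAATCCTAGCCCT
16S end and tRNA-Leu, chrM:2661-2690: AACCTAGAGAAGGTTattagggtggcagag
The third of these holds the ELAC2 cut, at the change from lower case to capitals. The tables count whole genes and do not resolve reads that cross such a junction. The entries for mt-Tf, mt-Tv and mt-Tl1 were at 0 reads in every library, and no mitochondrial tRNA entry exceeded 2 reads, so the tRNAs released beside the rRNAs were not detectable here.

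The libraries held 6569642 to 11225281 reads, recovered from the normalized counts as described with the processing. They differed in genes of other tissues. The labels say that the seminal vesicles were taken away at dissection, and reads of their genes are called seminal vesicle RNA here after the known site of these genes, without a test of where the reads came from. Genes of the seminal vesicle (Svs1 to Svs6 and Pate4) took 6.55 to 10.3% of counts in the 3 KO libraries at 10 weeks, 4.55% in WT 10AF, 1.73% in WT 11AF and no more than 0.191% in WT 12AF and the A537T libraries. At 30 weeks they took 8.53% and 6.32% in KO 4AF and 6AF and 7.24% and 9.17% in A537T 7AF and 9AF, and no more than 0.000331% in the other 5 libraries. The full list of 10 genes also held Sva and 9530002B09Rik, which are left out of these sums. 9530002B09Rik was lowest in KO 15AF, at 0.075%, and highest in KO 5AF, at 0.659%. All 10 genes summed to 6.71 to 10.4% in KO at 10 weeks and 0.372 to 0.621% in WT at 30 weeks. The limit of 1% used below refers to the shorter set. At 10 weeks the 20 skeletal muscle markers summed to 3.85 to 12.5% in WT. Their sum was 0.0585 to 2.03% in KO, 1.53 to 4.32% in A537T and no more than 0.0712% in any library of 30 weeks. The 9 luminal prostate markers were above 0 in every library, and their sum ran from 0.459% in KO 15AF to 14.7% in WT 1AF. Elac2 was at 98.4 to 143 normalized counts in the 9 libraries with over 1% of seminal vesicle genes. In the 9 others it was at 148 to 193. These counts come from tables scaled separately, and the limit was chosen after the data were seen. As a share of counts, Elac2 overlapped between the sets. It took 0.00164% in WT 11AF, over the limit, and 0.00158% in WT 12AF, under it. At 10 weeks Elac2 counts were 125, 143 and 167 in WT, 119, 111 and 115 in KO and 173, 165 and 158 in A537T. At 30 weeks they were 148, 152 and 193 in WT, 98.4, 151 and 122 in KO and 121, 189 and 114 in A537T. No difference of Elac2 from WT passed the test, and a count over the whole gene does not read the deleted exon. In bulk tissue, fewer cells of a type and less RNA per cell cannot be told apart.

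Both rRNAs were among the most abundant RNAs of every library. 16S took 1.88 to 3.49% of normalized counts and 12S 0.372 to 1.02%, so that 37370 or more reads stood behind every 12S value. Counting error was small at this depth: the share of 12S in WT 10AF was 0.948% with a 95% Wilson interval of 0.942 to 0.955%, which covers counting error only. At 10 weeks 12S took 0.948, 0.593 and 0.478% in WT, 0.968, 0.877 and 0.917% in KO and 1.02, 0.955 and 0.509% in A537T. The KO libraries lay close together near the top of the WT values, while WT and A537T each had libraries below them. At 30 weeks 12S took 0.641, 0.627 and 0.634% in WT, 0.786, 0.372 and 0.459% in KO and 0.806, 0.493 and 0.664% in A537T. The 3 WT values were nearly equal, and both mutant groups spread to either side of them.

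For 16S the shares at 10 weeks were 3.37, 2.91 and 2.98% in WT, 2.99, 2.94 and 2.73% in KO and 3.49, 3.34 and 2.34% in A537T. At 30 weeks they were 2.82, 2.31 and 2.47% in WT, 2.58, 2.02 and 1.88% in KO and 2.87, 2.19 and 2.55% in A537T. The groups of each age overlapped for both rRNAs. Over the 8 comparisons of a share with WT, the differences ran from -0.371 percentage points (16S, KO at 30 weeks) to 0.260 (12S, KO at 10 weeks), with exact two-sided permutation p = 0.3 in both cases and an adjusted p = 0.933. With 3 libraries against 3, such a test cannot give a p under 0.1.

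**Figure D1:**
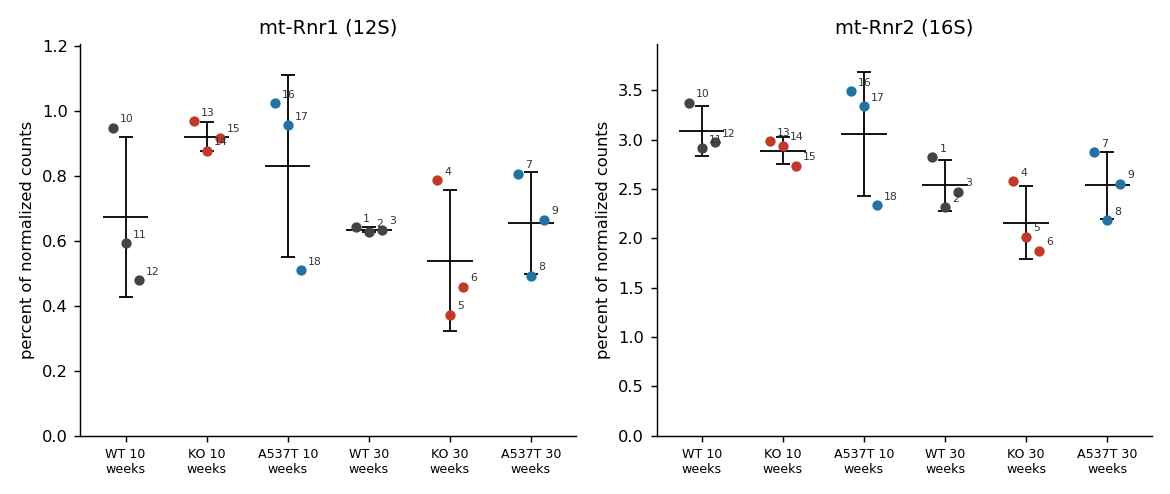
Percent of normalized counts taken by mt-Rnr1 (left) and mt-Rnr2 (right) in the 18 libraries by group. Points are libraries with the number of their label, lines are group means and bars are SD (n = 3, WT libraries averaged over the 2 tables that hold them). 12S ran from 0.372% in KO 5AF to 1.02% in A537T 16AF and 16S from 1.88% in KO 6AF to 3.49% in A537T 16AF.

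Per kilobase of gene, 16S stood first among the 13 mitochondrial rRNA and mRNA entries in all 18 libraries. It lay 1.85 times (WT 12AF) to 4.65 times (KO 15AF) above mt-Co1, the mRNA of cytochrome c oxidase subunit 1, per kilobase. 12S held rank 2 in 14 libraries, rank 4 in 3 (WT 11AF, A537T 18AF and KO 5AF) and rank 5 in WT 12AF. Its level per kilobase was 0.493 times that of mt-Co1 in WT 12AF and 2.58 times in KO 15AF. 16S thus kept its rank in every library, while that of 12S changed. Total RNA can be depleted of rRNA or selected for poly(A) before sequencing, and which was done is not given in the sources used here. How far such a step changed the counts of 12S and 16S, and so their shares, ranks and ratios, was not tested. Other RNAs without a long poly(A) tail were counted well: the 7SL RNAs Rn7s1 and Rn7s2 took 10.7 to 23.8% of counts and Rn7sk, the 7SK RNA, 1.52 to 3.23%. The 70 histone genes summed took 0.031 to 0.059%.

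The ratio of 16S to 12S counts was above the ratio of their lengths, 1.66, in every library. At 10 weeks it was 3.56, 4.91 and 6.23 in WT, 3.09, 3.35 and 2.98 in KO and 3.41, 3.50 and 4.59 in A537T. The KO values were the lowest of this age, and WT 12AF was the highest of all 18 libraries. At 30 weeks the ratio was 4.40, 3.70 and 3.9 in WT, 3.28, 5.42 and 4.09 in KO and 3.56, 4.44 and 3.84 in A537T, and the 3 groups overlapped. The group means, in falling order, were 4.90 ± 1.34 (SD, n = 3) in WT at 10 weeks, 4.26 ± 1.08 in KO at 30 weeks, 3.997 ± 0.360 in WT at 30 weeks, 3.95 ± 0.447 in A537T at 30 weeks, 3.83 ± 0.657 in A537T at 10 weeks and 3.14 ± 0.192 in KO at 10 weeks. Neighbours in this order overlapped, except the last 2. Divided by the lengths, the ratio ran from 1.80 in KO 15AF to 3.76 in WT 12AF. The 4 tables were made separately, and the same WT library gave a 16S to 12S ratio 3.34% lower in the A537T table than in the KO table at 10 weeks and 0.68% higher at 30 weeks.

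**Figure D2:**
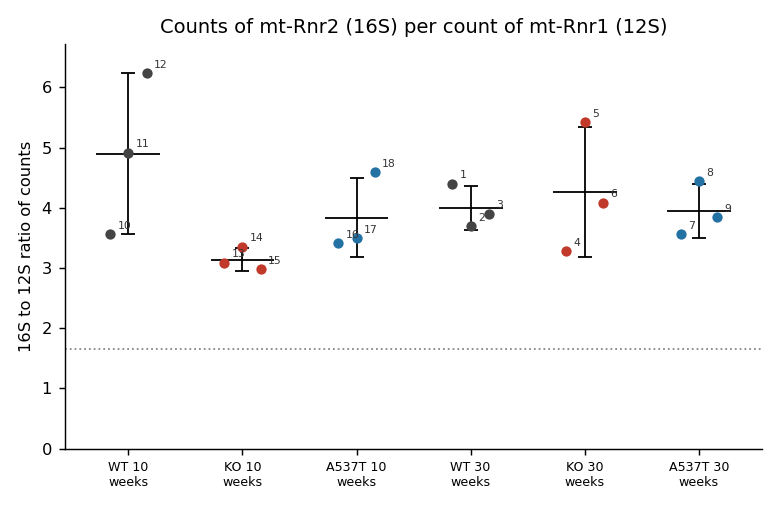
Counts of mt-Rnr2 (16S) per count of mt-Rnr1 (12S) in the 18 libraries by group, with group means and SD (n = 3). The dotted line is the ratio of the gene lengths, 1.66, and every library lies above it, from 2.98 in KO 15AF to 6.23 in WT 12AF.

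Relative to the summed mitochondrial mRNAs, 12S had its lowest group mean in WT at 10 weeks, although WT 10AF lay above libraries of other groups. Its ratio to the mRNAs was 0.329, 0.176 and 0.124 in WT, 0.413, 0.355 and 0.488 in KO and 0.365, 0.339 and 0.191 in A537T at 10 weeks. The ratio of 12S in the 3 KO libraries was above that in every WT library of that age. At 30 weeks it was 0.303, 0.337 and 0.318 in WT, 0.397, 0.190 and 0.260 in KO and 0.416, 0.273 and 0.359 in A537T, with overlap between all groups. The range over the 18 libraries was 3.92-fold. Group means fell from 0.419 ± 0.067 in KO at 10 weeks through A537T at 30 weeks (0.350), WT at 30 weeks (0.319), A537T at 10 weeks (0.298) and KO at 30 weeks (0.282) to 0.210 ± 0.106 in WT at 10 weeks, and each neighbouring pair overlapped.

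For 16S, the ratio to the mRNAs at 10 weeks was 1.17, 0.865 and 0.775 in WT, 1.28, 1.19 and 1.45 in KO and 1.25, 1.19 and 0.875 in A537T. At 30 weeks it was 1.33, 1.24 and 1.24 in WT, 1.30, 1.03 and 1.06 in KO and 1.48, 1.21 and 1.38 in A537T. The 16S range was 1.91-fold over the 18 libraries. Group means fell from 1.36 ± 0.136 in A537T at 30 weeks through KO at 10 weeks (1.31), WT at 30 weeks (1.27), KO at 30 weeks (1.13) and A537T at 10 weeks (1.10) to 0.937 ± 0.207 in WT at 10 weeks, again with overlap between neighbours. 16S alone outnumbered the 11 mRNA entries together in all libraries but WT 11AF, WT 12AF and A537T 18AF, the 3 libraries with the lowest 12S to mRNA ratios of their age.

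**Figure D3:**
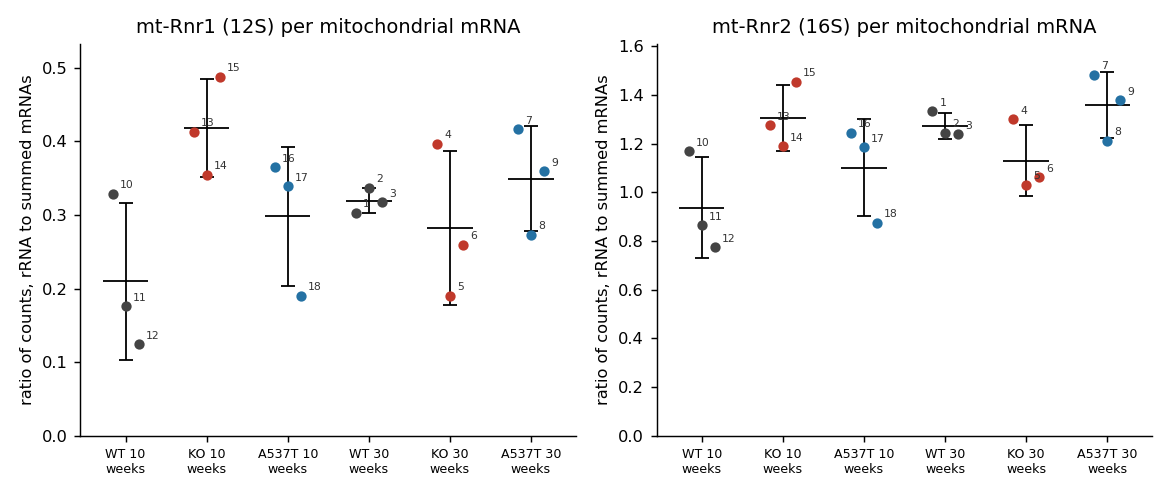
Ratio of mt-Rnr1 counts (left) and mt-Rnr2 counts (right) to the sum of the 11 mitochondrial mRNA entries, by group, with library numbers, means and SD (n = 3). At 10 weeks every KO library lies above every WT library in both panels, and at 30 weeks the groups overlap.

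The comparison of KO with WT asks whether loss of the enzyme that makes the 5′ ends of both rRNAs changed their levels. At 10 weeks, 12S was at 74572, 49556 and 48569 normalized counts in WT and 71959, 71424 and 68891 in KO, which overlapped. Its log2 fold change was 0.33 ± 0.32 (SE), with an adjusted p = 0.569 from limma, and was 0.53 without WT 10AF. 16S was at 269937, 247492 and 307643 in WT and 222141, 239559 and 205324 in KO. All KO values of 16S were below all WT values. The 16S log2 difference was -0.30 ± 0.51, for which limma gave an adjusted p = 0.752. This SE draws in part on other genes with a similar mean, so it does not show the spread of 16S alone. Of the 15089 genes tested in this comparison, 26.0% had groups that did not overlap. No gene of the table was called at an adjusted p under 0.05 by limma or by edgeR on recovered reads, while DESeq2 called 715, neither rRNA among them, and 19.4% of genes had an unadjusted p under 0.05 in limma. Without WT 10AF limma called 2886 genes, and without KO 14AF 185.

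The ratios, which do not depend on the scaling of a library, set KO and WT further apart at 10 weeks. 16S to 12S was 0.646-fold that of WT (log2 difference -0.63), 12S to mRNA was 2.18-fold (1.13) and 16S to mRNA 1.41-fold (0.50). None of the 3 ratios overlapped between groups, each with exact permutation p = 0.1, the smallest this design allows, and adjusted p = 0.4 over 12 tests. On the log2 scale 16S to mRNA is the sum of 16S to 12S and 12S to mRNA, so the 3 are not independent. The mRNAs themselves summed to 2.88 to 3.84% of counts in WT and 1.88 to 2.47% in KO. The KO libraries also held more seminal vesicle RNA than any WT library and less skeletal muscle RNA, and at this age genotype and seminal vesicle content cannot be told apart. Without WT 12AF, the WT libraries with over 1% of seminal vesicle genes remained. The log2 differences were then -0.44, 0.81 and 0.37, with no overlap in any of the 3 ratios. WT 10AF, the WT library with the most seminal vesicle RNA, lay nearest to KO in all 3 ratios.

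In A537T at 10 weeks, 12S was at 91477, 82771 and 39930 normalized counts against 81993, 53483 and 52627 in WT, and 16S at 312047, 289590 and 183299 against 286892, 258192 and 322227. A537T 18AF was the lowest of the 6 libraries for both rRNAs, and 16AF the highest for 12S. The log2 fold changes were 0.13 ± 0.43 for 12S and -0.18 ± 0.56 for 16S (limma, adjusted p = 0.960 for 12S and 0.956 for 16S). The groups overlapped for both, where 11.9% of 15131 genes did not overlap. No gene was called, with 6.43% at an unadjusted p under 0.05, and 50 were called without WT 10AF. KO and A537T shared the WT libraries of this age, so signs that match between the lines are not independent. The ratios differed from WT with the same sign as in KO but overlapped it, with log2 differences of -0.31 for 16S to 12S, 0.55 for 12S to mRNA and 0.24 for 16S to mRNA (exact permutation p = 0.2 each, adjusted p = 0.4). Single libraries set their size. The difference in 12S to mRNA was 0.23 without WT 12AF, 0.93 without WT 10AF and 0.84 without A537T 18AF. Against WT 12AF alone it was 1.18 with no test, a comparison added once the values were known. WT 12AF was the only WT library of this age with under 1% of seminal vesicle genes, at 0.000783% against 0.0374 to 0.191% in A537T. It also held more skeletal muscle RNA, 12.5% against 1.53 to 4.32% in A537T.

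At 30 weeks the rRNAs of KO and A537T spread around WT. In KO, 12S was at 74782, 30690 and 43466 normalized counts against 56953, 58603 and 55893 in WT, and 16S at 245173, 166385 and 177600 against 249514, 215807 and 217247. Library 5AF was the lowest for both rRNAs and 4AF the highest of the 6 for 12S. The log2 fold changes were -0.30 ± 0.31 and -0.23 ± 0.25 (limma, adjusted p = 0.743 for 12S and 0.754 for 16S). They were -0.0032 and -0.12 without 5AF and -0.65 and -0.40 without 4AF. The groups overlapped for both, where 16.3% of 14729 genes did not overlap. No gene was called, with 1616 at an unadjusted p under 0.05, and 944 were called without KO 5AF. The ratios differed from WT by 0.07 for 16S to 12S, -0.24 for 12S to mRNA and -0.17 for 16S to mRNA on the log2 scale (exact permutation p = 0.8, 0.6 and 0.3). Without 5AF the first became -0.12 and the second 0.01. Library 5AF lacked the seminal vesicle RNA that 4AF and 6AF carried, and against the WT libraries, which lacked it too, 5AF alone differed by 0.45 in 16S to 12S and -0.74 in 12S to mRNA.

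In A537T at 30 weeks, 12S was at 70674, 41618 and 61992 normalized counts against 56775, 58367 and 55858 in WT, and 16S at 251773, 184690 and 238069 against 250437, 216404 and 218595. Library 8AF was the lowest of the 6 for both rRNAs and 7AF the highest. The log2 fold changes were -0.01 ± 0.22 and -0.03 ± 0.23 (limma, adjusted p = 0.992 for 12S and 0.960 for 16S), with overlap, where 18.6% of 14789 genes did not overlap. No gene was called, with 13.6% at an unadjusted p under 0.05, and 1224 were called without A537T 8AF. The ratios differed by -0.03 for 16S to 12S, 0.11 for 12S to mRNA and 0.08 for 16S to mRNA (exact permutation p = 0.8, 0.6 and 0.5). Library 8AF, without seminal vesicle RNA, had 4.44 for 16S to 12S and 0.273 for 12S to mRNA. Libraries 7AF and 9AF, with it, had 3.56 and 3.84 for 16S to 12S and 0.416 and 0.359 for 12S to mRNA, and 9AF lay inside the WT range for the first ratio. In KO, 6AF carried such RNA and 5AF lacked it, and both lay below WT in 12S to mRNA, at 0.260 and 0.190. The part of seminal vesicle RNA in these values was not tested. 8AF alone differed from WT by 0.15, -0.23 and -0.08 in the 3 ratios, opposite in sign to the group.

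Set directly against A537T, KO had a lower 16S to 12S ratio at 10 weeks, 2.98 to 3.35 against 3.41 to 4.59, with no overlap and a log2 difference of -0.28 (exact permutation p = 0.1, adjusted p = 0.3 over 6 tests). Without A537T 18AF this difference was -0.14, and that in 12S to mRNA went from 0.53 to 0.24. The other 5 differences between the lines ran from -0.35 to 0.53 on the log2 scale, and the groups overlapped. At 10 weeks the lines were also apart in seminal vesicle RNA, at 6.55% or more in KO and 0.191% or less in A537T. The lines came from separate tables as well. The same WT library gave a 16S to 12S ratio 3.34% lower in the A537T table than in the KO table.

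Age was compared through the ratios alone, since the tables of each age were scaled separately. Ratios can still differ between tables. At 10 weeks 16S to 12S of the same WT library was 3.34% lower in the A537T table than in the KO table. Averaged over the genotypes, 16S to mRNA was 0.19 higher on the log2 scale at 30 than at 10 weeks (exact permutation p = 0.1325, adjusted p = 0.3975), 12S to mRNA 0.12 higher (p = 0.623 by exact permutation) and 16S to 12S 0.07 higher (p = 0.622 by exact permutation). The genotypes went different ways. In WT, 16S to mRNA was 0.775 to 1.17 at 10 weeks and 1.24 to 1.33 at 30 weeks, without overlap, a log2 difference of 0.46 (exact permutation p = 0.1). In KO the same ratio differed by -0.21 and in A537T by 0.31, with overlap in both. The 3 younger WT libraries also held more skeletal muscle RNA than the older ones, 3.85% or more against 0.0712% or less, and its part in the difference was not tested.

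The KO effect at 30 weeks minus that at 10 weeks was -1.37 for 12S to mRNA (exact permutation p = 0.05), -0.67 for 16S to mRNA (p = 0.025 by exact permutation) and 0.70 for 16S to 12S (p = 0.095 by exact permutation), all on the log2 scale. After adjustment over 10 tests none passed the threshold (adjusted p = 0.25, adjusted p = 0.25 and adjusted p = 0.317 by exact permutation). For the levels in KO the same contrast was -0.63 for 12S and 0.07 for 16S. For A537T it ran from -0.44 (12S to mRNA) to 0.28 (16S to 12S) over the 5 measures, with adjusted p = 0.77 or above by exact permutation.

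The mRNAs that form the denominator did not move as one. In KO at 10 weeks the cytochrome c oxidase mRNAs mt-Co1, mt-Co2 and mt-Co3 differed from WT by -1.06, -0.91 and -1.18, and mt-Nd3, a complex I subunit, by -1.24 on the log2 scale. The complex I mRNAs mt-Nd2, mt-Nd4l_4 and mt-Nd5 differed by 0.09, 0.10 and 0.15, and 12S by 0.33. Of the 11 entries, 7 had an unadjusted p under 0.05, all lower in KO, beside 19.4% of all genes, and none passed after adjustment. In A537T at 10 weeks the same 3 complex I entries differed by 0.04, 0.17 and 0.23 and mt-Nd3 by -1.01, and 2 of the 11 (mt-Nd3 and mt-Nd6) had an unadjusted p under 0.05, beside 6.43% of all genes. At 30 weeks 1 of the 11 (mt-Nd3, higher) did so in KO, beside 1616 of 14729 genes, and 2 (mt-Nd4l_4 and mt-Nd5, lower) in A537T, beside 13.6%. The entry mt-Nd3 at 30 weeks differed by 0.59 in KO, and mt-Nd4l_4 and mt-Nd5 by -0.33 and -0.41 in KO and by -0.35 and -0.44 in A537T.

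**Figure D4:**
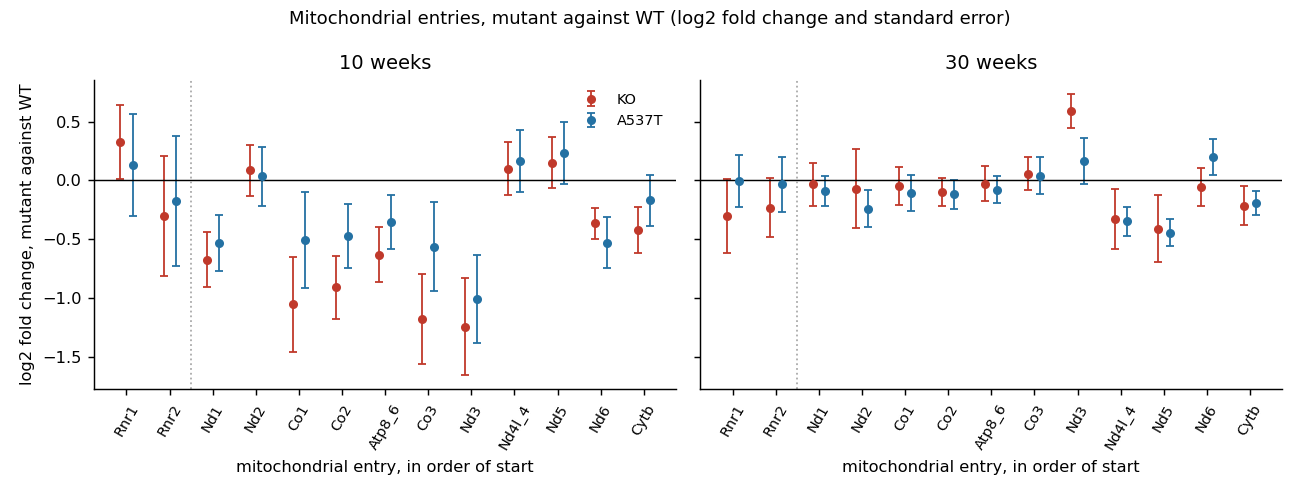
Log2 fold change against WT (points) with its standard error from limma (bars) for the rRNAs (left of the dotted line) and the mRNA entries in their order along mitochondrial DNA, at 10 weeks (left) and 30 weeks (right), KO in red and A537T in blue. At 10 weeks 12S lies at 0.33 and 0.13 and 16S at -0.30 and -0.18, while mt-Co1, mt-Co3 and mt-Nd3 lie lowest.

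Factors that make, mature and assemble the rRNAs were listed as 47 genes in 5 groups. None was called in any comparison by limma at an adjusted p under 0.05. The median log2 fold change of the list was -0.14 for KO and -0.03 for A537T at 10 weeks, and 0.02 and -0.02 at 30 weeks, where the medians over all genes tested lay between -0.007 and 0.011. In KO at 10 weeks 32 of the 46 tested were lower and 4 had an unadjusted p under 0.05, beside 19.4% of all genes. The 4 were Hsd17b10, a subunit of mitochondrial RNase P (log2 fold change -0.57), Tefm, the mitochondrial transcription elongation factor (-1.35), Rpusd3, a mitochondrial pseudouridine synthase family member (-1.11), and Slirp, the partner of Lrpprc in mRNA stability (-1.07). The last 3 were named after their values were seen.

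Among the most abundant members of each group, Tfb2m and Tfam, which start mitochondrial transcription, differed from WT by -0.26 and -0.11 in KO and by -0.16 and 0.32 in A537T at 10 weeks, and at 30 weeks by -0.23 and 0.11 in KO and by -0.23 and -0.03 in A537T. Rmnd1, needed for mitochondrial translation, and Mettl17, an assembly factor of the small subunit, differed at 10 weeks by -0.33 and -0.18 in KO and by 0.09 and -0.27 in A537T, and at 30 weeks by -0.11 and 0.10 in KO and by -0.37 and 0.31 in A537T. Dhx30 and Ngrn, which act on 16S and the large subunit, stayed between -0.26 and 0.23 in the 4 comparisons. Lrpprc, which stabilises mitochondrial mRNAs, was at -0.31 in both lines at 10 weeks and at 0.00 and 0.05 at 30 weeks, and Rexo2, an exoribonuclease of short RNAs, stayed between -0.12 and 0.16. None of these passed the test.

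The protein partners of the rRNAs mostly had negative log2 fold changes at 10 weeks. The protein genes of the small subunit tested were 29, of which 26 were lower in KO and 25 in A537T, with medians of -0.32 and -0.22. Of 49 large subunit protein genes, 44 and 41 were lower, with medians of -0.37 and -0.22. At 30 weeks the medians lay between -0.04 and 0.03. None of these genes was called. Over all genes tested at 10 weeks, 7630 of 15089 were lower in KO and 7345 of 15131 in A537T. Skeletal muscle markers took at most 2.03% of counts in KO and 1.53 to 4.32% in A537T, against 3.85 to 12.5% in WT, and their part in these counts was not tested.

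Genes that followed each rRNA from library to library were sought among 9985 nuclear genes by the lower of the Pearson r over the 9 libraries of each age. For 12S these were Anp32a, Dvl3, Vkorc1l1, Ubap2 and Rtn3, with a lower r of 0.815 to 0.723. For 16S they were Bckdhb, Mast2, Prkar2a, Tacc2 and Zfp24, with 0.54 to 0.48. The points share libraries and totals, and the list is a description. Among the mitochondrial mRNAs at 10 weeks, 12S went with mt-Nd5 (r = 0.88), mt-Nd2 (0.87) and mt-Nd4l_4 (0.85) and opposite to mt-Nd3 (-0.765), mt-Co3 (-0.74) and mt-Co1 (-0.69). At 30 weeks it went with mt-Nd1 (0.85), mt-Atp8_6 (0.79) and mt-Nd6 (0.78). 16S went most closely with mt-Cytb (0.70) and mt-Nd6 (0.69) at 10 weeks and with mt-Nd6 (0.88) at 30 weeks.

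The shares of 12S and 16S rose and fell together more closely at 30 weeks (Pearson r = 0.87, Spearman rho = 0.93, n = 9, exact permutation p = 0.0028 and 0.00075, adjusted p = 0.0325 and 0.0172 over 23 relations) than at 10 weeks (r = 0.63, rho = 0.72, exact permutation p = 0.065 and 0.037, adjusted p = 0.137 and 0.141), and the difference between the ages was not tested. Without the 2 libraries farthest from the median of 12S, r was 0.76 and 0.46.

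The 16S to 12S ratio moved with other contents of the libraries. At 10 weeks it ran opposite to the share of Gm42418, Gm26917 and Lars2, entries known to take up reads of cytosolic rRNA, with r = -0.90 and rho = -0.82 (n = 9, exact permutation p = 0.00088 and 0.011, adjusted p = 0.0203 and 0.0984) and r = -0.82 without the 2 farthest libraries. These 3 entries, chosen after the data were seen, took at that age 1.34, 0.667 and 0.184% of counts in WT (10AF to 12AF). The KO libraries held 1.29, 1.60 and 1.48% and the A537T libraries 0.817 to 0.885%, so that WT 10AF lay inside the KO range. At 30 weeks the relation was r = -0.52 and -0.05 without the 2 farthest libraries, so it rested on those, 2AF and 5AF (rho = -0.35, exact permutation p = 0.15 and 0.36, adjusted p = 0.246 and 0.515). The ratio was higher in libraries with more luminal prostate RNA at both ages (r = 0.67 and 0.76, rho = 0.77 and 0.70, exact permutation p = 0.046 and 0.014 for r and 0.021 and 0.043 for rho), with adjusted p = 0.126 and 0.0537 for r by exact permutation and 0.68 and 0.74 without the 2 farthest. It was also higher in deeper libraries, with r = 0.68 at 10 and 0.81 at 30 weeks, rho = 0.63 and 0.77, exact permutation p = 0.049 and 0.0056 for r and 0.076 and 0.021 for rho, adjusted p = 0.126 and 0.0428 for r, and r = 0.52 and 0.55 without the 2 farthest. It was higher as well in libraries of 10 weeks with more skeletal muscle RNA (r = 0.68, rho = 0.78, exact permutation p = 0.049 and 0.017, adjusted p = 0.126 and 0.0984, r = 0.62 without the 2 farthest). It ran opposite to the share of 7SL RNA, with r = -0.46 at 10 and -0.77 at 30 weeks (rho = -0.38 and -0.65, exact permutation p = 0.22 and 0.012 for r and 0.31 and 0.067 for rho, adjusted p = 0.321 and 0.0537 for r, r = -0.28 and -0.49 without the 2 farthest). The permutations here, and those for the shares of 12S and 16S, exchanged all 9 libraries of an age without regard to genotype. The groups differ in these contents, so the p-values do not separate a relation between libraries from a difference between groups. The part of these contents in the ratio was not tested.

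By seminal vesicle content the libraries of 30 weeks fell into separate sets. Those of 10 weeks were graded, from 0.000783% in WT 12AF through 1.73% in WT 11AF to 10.3% in KO 15AF. A limit of 1%, chosen after the data were seen, was used at both ages. No correlation with this content was computed, so its relation to the ratios was not tested. At 30 weeks the 4 libraries with over 1% of seminal vesicle genes had 16S to 12S ratios of 3.28 to 4.09 and the 5 others 3.70 to 5.42. Their 12S to mRNA ratios were 0.260 to 0.416 and 0.190 to 0.337, and their 16S to mRNA ratios 1.06 to 1.48 and 1.03 to 1.33. The sets overlapped in all 3 ratios. At 10 weeks the 5 libraries above this limit had 16S to 12S ratios of 2.98 to 4.91 and the 4 others 3.41 to 6.23. Their 12S to mRNA ratios were 0.176 to 0.488 and 0.124 to 0.365, and their 16S to mRNA ratios 0.865 to 1.45 and 0.775 to 1.25, again with overlap.

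**Figure D5:**
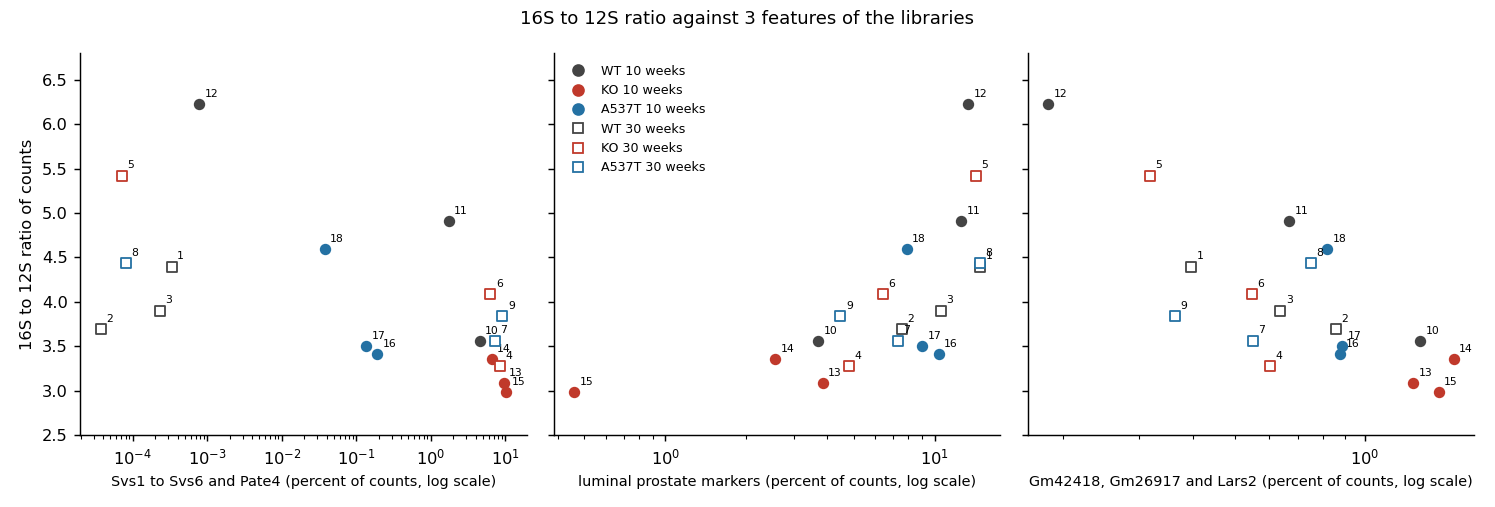
Ratio of 16S to 12S counts in each library against its percent of counts (log scale) in seminal vesicle genes (left), luminal prostate markers (middle) and the entries Gm42418, Gm26917 and Lars2 (right). Filled circles are 10 weeks and open squares 30 weeks. KO libraries of 10 weeks (2.98 to 3.35) lie toward the right of the left and right panels and toward the left of the middle one.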

How the data were processed

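RNA sequencing libraries of 18 mice in 6 groups of 3 were analysed. Per the labels and methods, the authors trimmed reads with Trim Galore 0.4.1 and cutadapt 1.18, aligned them with STAR 2.7.3a to GRCm38 masked for nuclear mitochondrial sequences, quantified them by strand with Salmon under a custom mitochondrial annotation, and imported gene counts into DESeq2 1.26. The signal values deposited by the authors are these counts divided by a size factor per library, in 4 tables of 6 libraries. The counts of the same WT library were not equal in both tables of its age. At 10 weeks 12S was 3.77 to 3.96% higher in the A537T table than in the KO table. 16S was 0.305 to 0.488% higher. The authors' own comparison columns (fold changes and significance values) were not used. Columns were matched to groups, not replicates, through the WT libraries shared by both tables of an age and through table means that match named sheets of a supplementary dataset. Whole counts, called reads here although Salmon estimates them, were recovered by dividing by the smallest value of a column. At least 99.9% of values came out whole within 0.01. For 4 columns the size factor is too near 1 for an automatic test of this, so count tests (edgeR 4.0.16, which called 0 genes, and DESeq2 1.42.0, which called 715) were run only for KO at 10 weeks. Depth was 6569642 to 11225281 reads.

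Each mutant group was compared with WT of its table by limma 3.58.1 in R 4.3.3 on log2(normalized count + 1), for genes with a mean of at least 10, with Benjamini-Hochberg adjustment over all genes and a threshold of 0.05. The fit was tested on simulated data. Ratios and shares were compared by exact two-sided permutation tests, with age permuted within genotype (8000 arrangements) and genotype within age (400). Values shown for WT libraries outside a comparison are means of the 2 tables. Libraries of a group came from separate mice. Exact permutation tests used only the values of these mice. In limma, standard errors and p-values also draw on the variance of other genes with a similar mean. Named genes were the rRNAs, Elac2, the mitochondrial mRNAs, flanking tRNAs, in each factor group every gene past the threshold or else the 2 with the highest mean count, and for each rRNA the 5 genes most like it. Members and lists were chosen with earlier results of these data known. Markers of plasma and B cells, T cells and macrophages, smooth muscle and adipocytes took at most 0.104, 0.00898, 0.857 and 0.0546% of counts in a library. GENCODE gave names for 54450 IDs by exact match and 657 by ID without its version, 35 entries are symbols, and 327 had no match. Sequences came from GENCODE transcripts of GRCm38. Computation used scipy 1.17.1, pandas 2.3.3 and numpy 2.4.6 under Python 3.11.15, and plots matplotlib 3.10.9.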

Additional observations from a re-analysis of the deposited data

How the results depend on the processing

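Of 622 alternative values for 60 results, 563 kept their direction and side of the threshold, or for counts of called genes their size. Of the results, 34 did so under every alternative. Exact tests of ratios and shares between 2 groups of 3 libraries cannot give a p under 0.1. With a library left out, the smallest p is again 0.1. In these tests the side of the threshold was fixed in advance, and only the direction was free to change. The lowest adjusted p over the alternatives of levels and ratios was 0.0225. The causes of the changes were not tested. Counting error is small for both rRNAs, and 3 mice a group limit every test. No paired analysis was possible because the columns carry no replicate numbers.

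Where 0 genes were called, limma without a mean trend called 1 in KO and 2 in A537T at 10 weeks, DESeq2 called 715 in KO at 10 weeks, a minimum mean of 1 gave 2 in A537T at 10 weeks, and seminal vesicle share as a covariate gave 3 in A537T at 30 weeks. With skeletal muscle share as a covariate, 16S in A537T at 10 weeks was at 0.21. With every library scaled to the same total, 12S in A537T at 30 weeks was at 0.017 and the KO effect on 16S at 30 minus 10 weeks at -0.15. With the mean of log2 mRNA counts in place of their sum, 16S to mRNA was 0.25 higher at 30 weeks (exact permutation, adjusted p = 0.0225). With muscle and seminal vesicle markers left out of the total, the share of 16S in A537T at 30 weeks differed by 0.148 percentage points.

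Leaving out the libraries with over 1% of seminal vesicle genes, chosen after the data were seen, left no KO library at 10 weeks and 1 library in an arm elsewhere, so values carry no test. They were -0.69 for 16S to 12S, 1.18 for 12S to mRNA and 0.0767 points for the 16S share in A537T at 10 weeks, and 0.45 for 16S to 12S in KO at 30 weeks. In A537T at 30 weeks they were 0.15, -0.23 and -0.076 for the 3 ratios, -0.45 and -0.30 for the 12S and 16S levels, and -0.141 and -0.358 points for their shares.

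Leaving out 1 library at a time, genes called ranged from 0 to 2886 (KO) and 0 to 50 (A537T) at 10 weeks and from 0 to 944 and 0 to 1224 at 30 weeks. In A537T, 12S ranged from -0.093 to 0.50 and 16S from -0.32 to 0.062 at 10 weeks, and from -0.17 to 0.22 and -0.12 to 0.10 at 30 weeks. At 30 weeks 16S to 12S ranged from -0.12 to 0.24 in KO, -0.11 to 0.046 in A537T and -0.10 to 0.26 between the lines, and 12S to mRNA from -0.52 to 0.013 in KO and -0.029 to 0.27 in A537T. Between the ages, 16S to 12S ranged from -0.0037 to 0.13 over the genotypes and -0.038 to 0.19 in A537T, and 12S to mRNA from -0.031 to 0.44 in A537T. The effect at 30 minus 10 weeks ranged from -0.10 to 0.18 for 16S in KO, and from -0.51 to 0.086 for 12S and -0.095 to 0.29 for 16S in A537T. Shares ranged from -0.255 to 0.324 points (16S, A537T, 10 weeks), -0.0555 to 0.101 (12S, A537T, 30 weeks) and -0.176 to 0.166 (16S, A537T, 30 weeks). Single libraries thus turned the sign of each of these levels, ratios and shares.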
